A study of Mus musculus with 3 samples.

Results

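Regulatory T cell genes were followed in thymic cells sorted as invariant NKT (iNKT) cells, before and after haploidentical bone marrow transplantation (BMT). The members were 10 genes, chosen by symbol and not by a cut on their values, of 30406 gene identifiers shared by the 3 count tables: the transcription factors Foxp3, Ikzf2 and Ikzf4, the receptors Klrg1, Il1r2 and Il1rl1, and the secreted proteins Areg, Il10, Ebi3 and Tff1. All 10 were found in each table, and the members had been picked with earlier results of these data known. The C57BL/6 library came from C57BL/6 mice 7 weeks old without BMT. The other 2 came from F1 (C57BL/6 x BALB/c) recipients 16 weeks old and 9 weeks after BMT, which had been lethally irradiated and given T cell-depleted C57BL/6 bone marrow alone (BM only, without graft-versus-host disease, GvHD) or together with C57BL/6 splenic cells (BM + Spl, with GvHD). In all 3, thymocytes depleted of CD8+ cells were pooled over several mice and sorted as TCRβ+ CD1d-tetramer+ CD24- NK1.1- cells, so each condition is 1 library and no value has a replicate check.

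Regulatory T cells are CD4+ T cells that restrain other immune cells, and most of them depend on Foxp3, the transcription factor that defines the lineage. They arise in the thymus from developing T cells and can also form, or return to the thymus, from the periphery. Activated regulatory T cells in tissues often carry Klrg1 and the IL-33 receptor and make IL-10 and amphiregulin. iNKT cells are a separate lineage with an invariant receptor alpha chain, built from Trav11 and Traj18, paired with few beta chain (V beta) segments, and they are driven by Zbtb16 (PLZF) in place of Foxp3.

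A filter of more than 200 and fewer than 6000 genes, with mitochondrial unique molecular identifiers (UMIs, each standing for a captured transcript) below 10%, kept 4434 C57BL/6 cells, 5970 cells in the BM only library and 5557 in BM + Spl. The median cell of these held 12086.5, 4740 and 6495 UMIs. The C57BL/6 table was made with Cell Ranger 3.0.2 and the others with 7.0.0 by the table headers, and V beta UMIs were found in 19.8% of C57BL/6 cells against 89.5% and 89.2% after BMT, so transplant, age, recipient strain and library preparation cannot be told apart in any comparison with C57BL/6. BM only and BM + Spl shared 43 cell barcodes, and neither shared any with C57BL/6. Levels below are CPM (counts of UMIs scaled by the total over the shared genes), each summed over a set of cells. Parentheses hold 95% intervals (exact Poisson for a level, exact conditional for a ratio of levels, Clopper-Pearson for a share of cells), which describe counting error alone and not the spread between mice. Those of levels and ratios take each UMI as independent. UMIs of a gene fall together in cells, up to 61 Tff1 UMIs in a BM only cell. These intervals are thus too narrow for the sampling of cells.

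RefSeq promoter sequences (GRCm38.p6, the 250 bases before a start site) were present for 5 members with 7 entries, and 3 of them, each carrying a match to a factor family known in regulatory T cells, are printed 5′ to 3′ on the gene's strand with the match in capitals. The motifs, read on both strands and overlapping no other match, were TGTTTAC for forkhead factors such as Foxp3, TTCNNNGAA for STAT factors, which act downstream of IL-2, and TGTGGT for RUNX factors. Of 32851 promoters of the same length, 3.17% held the forkhead motif, 7.02% the STAT motif and 14.05% the RUNX motif. The Foxp3 window at chrX:7580233-7580482 (plus strand, inside the annotated gene chrX:7573644-7595245) held 1 STAT match. The Il1r2 window at chr1:40085843-40086092 (plus strand, inside chr1:40074079-40125231) also held 1 STAT match. The Il1rl1 window at chr1:40439379-40439628 (plus strand, inside chr1:40429570-40465415) held 1 forkhead match, which stands on the minus strand, and 1 RUNX match.
Foxp3: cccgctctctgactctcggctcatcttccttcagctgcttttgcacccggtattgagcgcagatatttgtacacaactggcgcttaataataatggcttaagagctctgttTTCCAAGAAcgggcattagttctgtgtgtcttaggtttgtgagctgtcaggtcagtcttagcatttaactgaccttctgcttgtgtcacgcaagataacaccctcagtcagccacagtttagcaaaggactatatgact
Il1r2: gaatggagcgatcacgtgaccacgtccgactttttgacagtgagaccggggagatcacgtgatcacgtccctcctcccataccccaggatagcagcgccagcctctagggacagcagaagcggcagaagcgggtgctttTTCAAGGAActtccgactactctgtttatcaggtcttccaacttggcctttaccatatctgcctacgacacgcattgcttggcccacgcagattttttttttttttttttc
Il1rl1: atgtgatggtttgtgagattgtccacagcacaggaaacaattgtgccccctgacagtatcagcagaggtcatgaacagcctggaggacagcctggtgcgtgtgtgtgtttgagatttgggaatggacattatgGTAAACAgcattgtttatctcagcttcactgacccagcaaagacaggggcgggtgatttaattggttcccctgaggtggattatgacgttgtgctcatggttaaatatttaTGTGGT
The other Foxp3 window (chrX:7579426-7579675), the other Il1rl1 window (chr1:40429320-40429569) and those of Areg (chr5:91139349-91139598) and Ebi3 (chr17:55952373-55952622) held none of these letters. A match is a description of the letters and was not tested as a binding site.

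To see whether the sorted cells held regulatory T cell transcripts, the level of each member was compared over the 3 libraries. The transcripts of 7 members that were almost missing from C57BL/6 were present in both BMT libraries, Foxp3 among them. Foxp3 had 4 UMIs in 3 C57BL/6 cells, 1874 UMIs in 648 BM only cells and 2687 UMIs in 746 BM + Spl cells. This came to 0.0680 CPM (0.0185 to 0.174) in C57BL/6, 53.9 CPM (51.4 to 56.3) in BM only and 62.3 CPM (59.98 to 64.7) in BM + Spl. Both BMT levels lay far above the C57BL/6 level, and their own intervals did not meet each other. Ikzf2 (Helios), a factor of many thymic regulatory T cells and of other T cells too, differed from this pattern with 166.6 CPM in C57BL/6, 137.3 CPM in BM only and 145.3 CPM in BM + Spl. Ikzf4 (Eos), which works with Foxp3 in silencing genes, was present in all 3 libraries at 7.62, 14.4 and 19.0 CPM.

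The receptors followed Foxp3. Il1r2, a decoy receptor that binds IL-1 without signalling, had 1 UMI in C57BL/6, or 0.0170 CPM (0.000431 to 0.0948), against 63.5 CPM (60.9 to 66.2) in BM only and 72.0 CPM (69.5 to 74.6) in BM + Spl. Klrg1, an inhibitory receptor for cadherins, had 10 UMIs or 0.170 CPM in C57BL/6, 21.1 CPM in BM only and 38.4 CPM in BM + Spl. Il1rl1, which encodes the IL-33 receptor ST2, had 0.731 CPM (0.529 to 0.985) in C57BL/6, 6.78 CPM (5.94 to 7.70) in BM only and 7.40 CPM (6.61 to 8.26) in BM + Spl. For Il1rl1 the 2 BMT intervals overlapped, and for Klrg1 and Il1r2 they did not.

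The secreted proteins were also nearly confined to the BMT libraries. Areg (amphiregulin), a growth factor for epithelium, had 4 UMIs in C57BL/6, 288 in BM only and 641 in BM + Spl, which is 0.0680, 8.28 and 14.9 CPM. Ebi3, a chain shared by IL-27 and IL-35, had 6, 716 and 1201 UMIs, or 0.102, 20.6 and 27.9 CPM. Il10, the anti-inflammatory cytokine, had 0, 59 and 158 UMIs, so a level of up to 0.0510 CPM in C57BL/6 is allowed (3 UMIs in the library), against 1.70 CPM (1.29 to 2.19) in BM only and 3.66 CPM (3.11 to 4.28) in BM + Spl. Tff1, a trefoil peptide best known from gastric mucus, had 0 UMIs in C57BL/6, 4140 in BM only and 2931 in BM + Spl, and was the member that stood lower in BM + Spl (68.0 CPM, 65.5 to 70.5) than in BM only (119 CPM, 115 to 123). Set against this floor of 3 UMIs, BM only was at least 33.2-fold higher for Il10 and at least 2332-fold higher for Tff1. The related trefoil gene Tff2 had 0 UMIs in the 3 libraries.

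**Figure D1:**
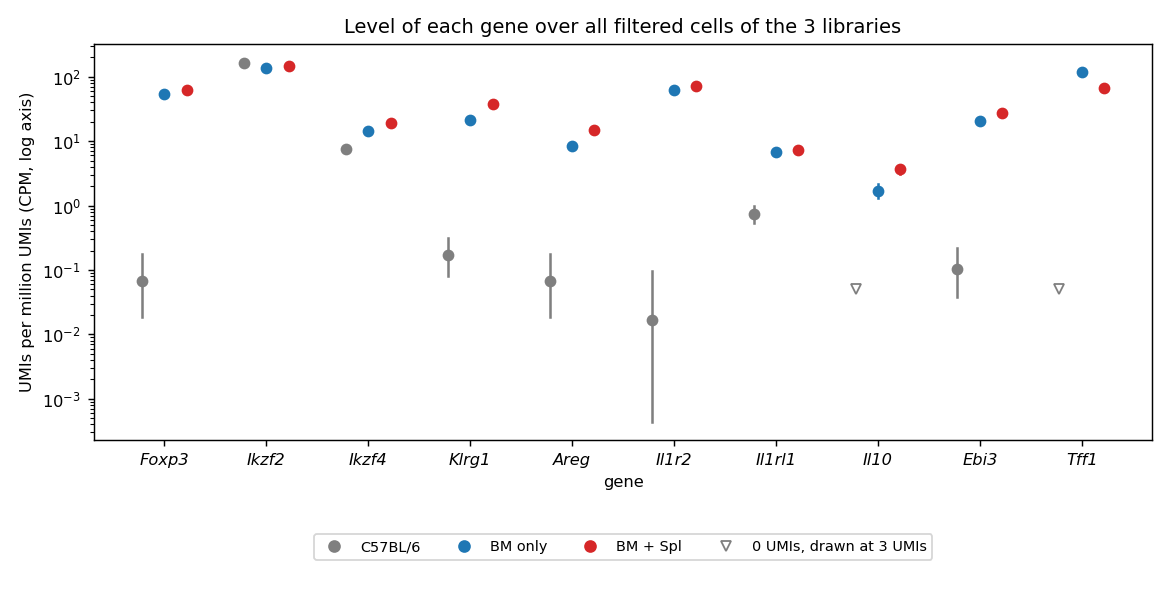
Level of the 10 genes over all filtered cells of each library, in CPM on a log axis. Points are the 3 libraries, lines the exact 95% Poisson intervals, and open triangles stand for 0 UMIs drawn at 3 UMIs. In C57BL/6 (grey) Ikzf2 and, at 7.62 CPM against 14.4 and 19.0 CPM, Ikzf4 lie nearest the BMT libraries, while Foxp3 lies at 0.0680 CPM against 53.9 and 62.3 CPM.

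Of the 10 members 9, all but Ikzf2, were at least 1.5-fold higher in BM only than in C57BL/6, against 36.8% of all genes tested (those with at least 20 UMIs in the 2 libraries together). That background is itself high, and the members' share is read beside it. In BM + Spl over BM only, 3 members (Klrg1, Areg and Il10) were at least 1.5-fold higher, against 8.17% of genes, and 1 (Tff1) was lower, against 10.8%. The median log2 ratio of the members was 0.31, against −0.0027 over all genes. Klrg1 differed by 0.86 (0.73 to 0.99) on the log2 scale, Areg by 0.84 (0.64 to 1.05), Il10 by 1.11 (0.67 to 1.57) and Tff1 by −0.81 (−0.88 to −0.74). Foxp3 itself differed by 0.21 (0.12 to 0.30), Ikzf2 by 0.08 (0.03 to 0.14) and Il1rl1 by 0.13 (−0.12 to 0.37). Cells of other types differed between these libraries too. The cluster named for plasmacytoid dendritic cells was 2.58% (2.19 to 3.01) of BM only and 7.23% (6.57 to 7.95) of BM + Spl. The 5 marker genes of these cells, all above 3 UMIs in both, summed to 560 CPM in BM only and 1064 CPM in BM + Spl. They summed to 401 and 908 CPM in cells with a Foxp3 UMI, so their sum does not measure plasmacytoid dendritic cells alone. The 4 marker genes of B cells summed to 99.0 CPM in BM only and 62.9 CPM in BM + Spl. Without the clusters named for plasmacytoid dendritic cells, macrophages and B cells, an alternative added after seeing the data, the ratios were 0.77 for Klrg1, 0.82 for Areg, 1.01 for Il10 and −0.83 for Tff1. A level summed over a library does not tell more cells with a gene from more of its RNA in each cell, which the next paragraphs separate as far as the counts allow.

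To find out which cells carried these transcripts, each cell of the BMT libraries was grouped by its V beta segment, called where 80% of the V beta UMIs of the cell were on 1 segment. Trbv1, Trbv13-1, Trbv13-3, Trbv29 and the merged pair Trbv12-2 and Trbv13-2 were counted as iNKT segments. The pair was taken as 1 segment, so a cell on Trbv12-2 alone also counted as an iNKT V beta cell. Cells on iNKT segments numbered 3665 in BM only and 2586 in BM + Spl, and cells on other segments 951 and 1673. Other segments were thus 20.6% (19.4 to 21.8) of called cells in BM only and 39.3% (37.8 to 40.8) in BM + Spl. Conventional T cells use the iNKT segments as well, so the groups are not pure lineages. Every member was higher in cells on other segments, in both libraries.

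Foxp3 stood at 19.0 CPM (17.2 to 20.9) in iNKT V beta cells and 214 CPM (201 to 227) in other V beta cells of BM only. In BM + Spl the levels were 25.8 CPM (23.8 to 28.0) and 142 CPM (134 to 149). The gap between the V beta groups was thus 3.49 (3.33 to 3.66) on the log2 scale in BM only and 2.46 (2.32 to 2.60) in BM + Spl. Foxp3 was found in 3.90% of iNKT V beta cells and 36.4% of other V beta cells in BM only, and in 6.26% and 24.0% in BM + Spl. Thinning each cell to 2000 UMIs, which left out 541 BM only and 256 BM + Spl cells, gave 2.62% and 25.9% in BM only and 3.92% and 16.2% in BM + Spl. As a comparison with another cell type, Foxp3 was found in 1 of 79 cells (1.27%, 0.032 to 6.85) of the B cell-like cluster in BM only. In BM + Spl it was found in 1 of 60 (1.67%, 0.0422 to 8.94), and the median depths were 6190 and 7925 UMIs. The share in iNKT V beta cells lay within the intervals of this cluster, which are wide because it is small. How far UMIs there come from free RNA was not tested, and Tff1 had 0 UMIs there in both libraries. In the NKT1-like cluster 2, Foxp3 was found in 1 of 1230 cells (0.0813%, 0.00206 to 0.452) of BM only and 4 of 289 (1.38%, 0.378 to 3.51) of BM + Spl. Both lay below the share in iNKT V beta cells, at median depths of 4390.5 and 4194 UMIs. Of the called cells of cluster 2, 4.26% in BM only but 71.3% (64.8 to 77.2) in BM + Spl were on other V beta segments. In BM + Spl it is thus mostly not a cluster of iNKT V beta cells, which limits it as a reference for any member there. By level, Foxp3 in the B cell-like cluster was at 1.79 CPM (0.0454 to 10.0) and 3.98 CPM (0.482 to 14.4), under the 19.0 and 25.8 CPM of iNKT V beta cells.

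The other members showed the same order. Ikzf2 had the smallest gap, with 90.5 CPM in iNKT V beta cells and 345 CPM in other V beta cells of BM only, and 93.5 and 260 CPM in BM + Spl. Ikzf4 went from 6.77 to 50.5 CPM in BM only and from 11.2 to 38.0 CPM in BM + Spl. The receptor Il1r2 went from 24.5 to 244 CPM in BM only and from 34.0 to 171 CPM in BM + Spl. Its level in iNKT V beta cells was not above that in the B cell-like cluster, 23.3 CPM (12.4 to 39.9) and 41.8 CPM (25.9 to 63.9), whereas the NKT1-like cluster 2 held 0.176 CPM (0.00446 to 0.982) and 6.94 CPM (3.33 to 12.8). Clusters without regulatory T cell markers thus gave no single background for Il1r2, and no expression is read from its level in iNKT V beta cells. Klrg1 stood at 8.89 and 77.6 CPM in BM only and at 13.2 and 91.1 CPM in BM + Spl, so it was the receptor with the higher other V beta level in BM + Spl. Il1rl1 stood at 2.35 and 25.7 CPM, then at 3.06 and 16.3 CPM.

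Among the secreted proteins, Ebi3 had 6.90 CPM in iNKT V beta cells and 81.7 CPM in other V beta cells of BM only, and 13.97 and 63.7 CPM in BM + Spl. Its level in iNKT V beta cells lay under that of the B cell-like cluster, 28.7 CPM (16.4 to 46.6) and 31.9 CPM (18.2 to 51.7). It lay above that of the NKT1-like cluster 2, with 0 UMIs (up to 0.650 CPM) in BM only and 3.47 CPM (1.13 to 8.10) in BM + Spl. These clusters gave no single background for Ebi3 either, and no expression is read from its level in iNKT V beta cells. The iNKT V beta levels of Klrg1, Il1rl1 and Il10 in both libraries, and of Areg in BM only, lay within the wide intervals of the B cell-like cluster. Areg had 3.25 and 26.7 CPM in BM only and 8.50 and 30.4 CPM in BM + Spl. Il10 was sparse, at 0.903 and 6.42 CPM in BM only and 1.68 and 9.22 CPM in BM + Spl. Tff1 had 46.3 CPM (43.6 to 49.3) and 449 CPM (430 to 468) in BM only but 30.1 CPM (28.0 to 32.5) and 153 CPM (146 to 161) in BM + Spl. In none of the 10 genes did the intervals of the V beta groups of a library meet.

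**Figure D2:**
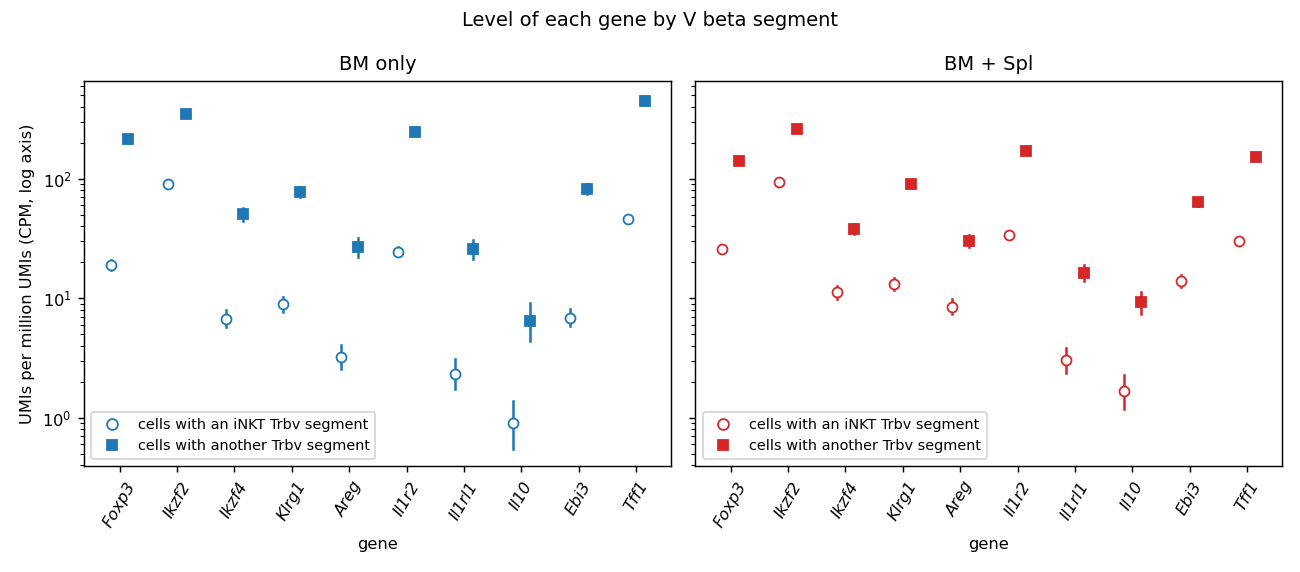
Level of the 10 genes in cells with an iNKT Trbv segment (open circles) and with another segment (filled squares), in CPM on a log axis, for BM only (left) and BM + Spl (right). Lines are exact 95% Poisson intervals. Every square lies above its circle, from 0.903 and 6.42 CPM for Il10 to 46.3 and 449 CPM for Tff1 in BM only.

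All 10 members were at least 1.5-fold higher in other V beta cells, in BM only against 15.4% of genes tested (9.69% were lower) and in BM + Spl against 19.2% (9.45% lower). Their median log2 ratio was 3.20 in BM only and 2.34 in BM + Spl, against 0.07 over all genes in both. Depth differed between these cells, with a median of 4898 UMIs in iNKT V beta cells and 4094 in other V beta cells of BM only, and 8176 and 4629 in BM + Spl.

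The gap between the V beta groups was smaller in BM + Spl, where the median over the members was 2.34, than in BM only, where it was 3.20. In iNKT V beta cells of BM + Spl over BM only, 4 members (Ikzf4, Areg, Il10 and Ebi3) were at least 1.5-fold higher, against 8.49% of genes, and 1 (Tff1) was lower, against 12.1%. The number higher was 7 when all V beta UMIs of a cell had to lie on 1 segment or when cells with markers of another type were left out, and 2 with only Trbv29 and the pair Trbv12-2 and Trbv13-2 as iNKT segments. Leaving out cells with such markers kept 4930 of 5970 BM only and 3653 of 5557 BM + Spl cells. Leaving out clusters 10, 14 and 15 kept 5645 and 5042. The markers thus took out many cells outside those clusters, and more of them in BM + Spl. Tff1 was past the fold no longer after thinning, without cells with markers of another type or without clusters 10, 14 and 15. Areg differed by 1.39 (0.99 to 1.80) there, Ebi3 by 1.02 (0.74 to 1.30), Ikzf4 by 0.73 (0.43 to 1.03) and Il10 by 0.90 (0.09 to 1.75). In other V beta cells, 0 members were higher, where 6.39% of genes were, and 3 (Foxp3, Il1rl1 and Tff1) were lower, where 7.98% were. After thinning or without cluster 4, 1 was lower. The share over all genes was not computed under the alternatives of this paragraph, so their counts of members have no background beside them. Foxp3 differed by −0.59 (−0.71 to −0.47), Il1rl1 by −0.65 (−0.997 to −0.30) and Tff1 by −1.55 (−1.65 to −1.46). The median of the members was 0.52 in iNKT V beta cells and −0.41 in other V beta cells. Klrg1 had ratios above 0 in both groups, at 0.57 and 0.23. Areg and Il10 had ratios above 0 in both too. In BM only they rested on 72 and 20 UMIs in iNKT V beta cells and on 129 and 31 UMIs in other V beta cells. No rise of Areg or Il10 is read in either V beta group. The Areg ratio in iNKT V beta cells turned to −0.67 when only Trbv29 and the pair Trbv12-2 and Trbv13-2 were taken as iNKT segments, so its direction there rested on the choice of segments. Foxp3 and Ikzf4 had ratios of opposite sign in the 2 V beta groups with intervals that left out 0, and the difference between the groups was not tested. Il1r2 and Ebi3 had such ratios too, from iNKT V beta levels that were above the NKT1-like cluster 2 but not above the B cell-like cluster. The ratio of Il1r2 in iNKT V beta cells turned to −0.33 without cluster 4.

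To see how far the members sat in the same cells, cells with at least 1 Foxp3 UMI were set against the rest. There were 648 such cells in BM only, 10.9% (10.1 to 11.7) of the library, and 746 in BM + Spl, 13.4% (12.5 to 14.3). At 2000 UMIs per cell the shares were 7.31% (6.63 to 8.04) and 8.60% (7.86 to 9.39), whose intervals overlapped. Foxp3+ cells of BM only had 1 Foxp3 UMI in 196 cases and 5 or more in 115, and those of BM + Spl had 1 in 174 and 5 or more in 203. A cell without a Foxp3 UMI may still express the gene, so the Foxp3- cells are a mixed group. The depth of the cells was close, with medians of 4560 UMIs in Foxp3+ and 4726.5 in Foxp3- cells of BM only, and 6241 and 6491 in BM + Spl.

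Of the Foxp3+ cells with a called segment, 346 of 489 in BM only (70.8%, 66.5 to 74.8) and 402 of 564 in BM + Spl (71.3%, 67.3 to 75.0) were on segments other than those of iNKT cells. In Foxp3- cells this share was 14.7% (13.6 to 15.8) and 34.4% (32.9 to 36.0). The intervals of the 2 libraries overlapped in Foxp3+ cells and lay apart in Foxp3- cells. Trbv5 was carried by 17.8% of called Foxp3+ cells in BM only and 14.5% in BM + Spl, against 3.49% and 5.22% of Foxp3- cells. The merged pair Trbv12-2 and Trbv13-2 was carried by 9.00% and 9.22% of Foxp3+ cells against 41.3% and 27.7% of Foxp3- cells. Trbv29 was carried by 2.66% and 1.95% against 16.0% and 12.9%.

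Markers of the iNKT lineage were rare in the Foxp3+ cells. Zbtb16 was found in 3.70% (2.39 to 5.46) of Foxp3+ cells of BM only and 4.16% (2.84 to 5.85) of those of BM + Spl, against 38.5% and 65.1% of Foxp3- iNKT V beta cells. Traj18 was found in 3 of 648 and 6 of 746 Foxp3+ cells, against 4.09% and 4.95% of Foxp3- iNKT V beta cells. Most of the latter thus had no Traj18 UMI either, and its lack in a cell says little. Trav11 was rarer still, in 1.39% of iNKT V beta cells of BM only. Cd4 was found in 51.4% and 56.3% of Foxp3+ cells. These cells carried the iNKT label of the sort, whereas Zbtb16 and Traj18 were found in a smaller share of them than of Foxp3- iNKT V beta cells. That group was chosen by its V beta segments, so a difference in segments from it was fixed beforehand. Zbtb16 was found in 9.99% of all other V beta cells of BM only, so its gap is not told apart from the V beta split.

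All 9 other members were at least 1.5-fold higher in Foxp3+ than in Foxp3- cells, in BM only against 16.8% of genes tested (19.2% were lower) and in BM + Spl against 12.9% (17.1% lower). Their median log2 ratio was 4.19 in BM only and 3.13 in BM + Spl. Tff1 stood at 902 CPM (873 to 932) in Foxp3+ and 18.7 CPM (17.2 to 20.3) in Foxp3- cells of BM only, and at 308 CPM (294 to 322) and 26.1 CPM (24.5 to 27.9) in BM + Spl. Klrg1 stood at 163 and 2.92 CPM, then at 216 and 7.38 CPM. Il1r2 stood at 408 and 19.4 CPM, then at 293 and 33.5 CPM. In each of these 3 genes the Foxp3- level was higher in BM + Spl, and the Foxp3+ level of Klrg1 was higher while those of Tff1 and Il1r2 were lower.

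Ikzf2 was found in 88.3% of Foxp3+ cells in BM only and 88.1% in BM + Spl, the widest cover of the 9. Tff1 was found in 62.5% (58.6 to 66.2) and 41.3% (37.7 to 44.9), and after thinning in 54.8% and 27.7%. Il1r2 was found in 54.5% and 50.9%, Ebi3 in 43.1% and 39.0%, and Ikzf4 in 36.1% and 37.5%. Klrg1 was found in 29.5% (26.0 to 33.2) and 37.1% (33.7 to 40.7), with 20.1% and 27.4% after thinning. Il1rl1 was found in 18.7% and 17.7%, Areg in 14.8% and 15.01%, and Il10 in 4.32% (2.89 to 6.18) and 8.85% (6.91 to 11.1). At least 1 of the 8 members besides Foxp3 and Ikzf2 was found in 92.7% (BM only) and 88.5% (BM + Spl) of Foxp3+ cells, against 8.85% and 20.8% of Foxp3- cells. At least 4 of these 8 were found in 27.0% and 24.9% of Foxp3+ cells, against 0.526% and 0.977% of Foxp3- cells.

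Within Foxp3+ cells most members differed little between the V beta groups. Il1r2 had 407 CPM in Foxp3+ iNKT V beta cells and 441 CPM in Foxp3+ other V beta cells of BM only, and 312 and 306 CPM in BM + Spl. Tff1 had 983 and 909 CPM in BM only and 313 and 288 CPM in BM + Spl. Areg of BM only was an exception, with 25.9 CPM (16.4 to 38.9) and 57.9 CPM (48.0 to 69.3), a gap of 1.16 (0.51 to 1.87) on the log2 scale that stood at −0.20 (−0.62 to 0.23) in BM + Spl. Il10 of BM only, with few UMIs, had a gap of −0.82 (−1.83 to 0.22). Ikzf2 of BM + Spl had 388 CPM (356 to 421) in iNKT V beta and 538 CPM (513 to 564) in other V beta cells.

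**Figure D3:**
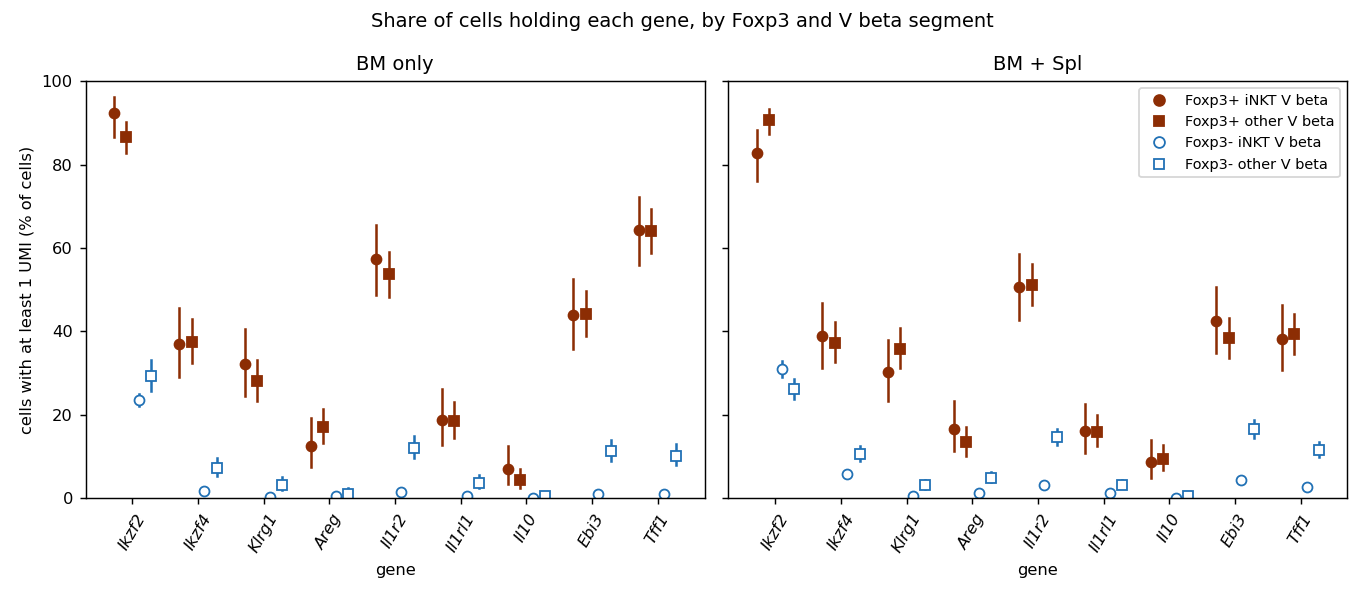
Share of cells with at least 1 UMI of each of 9 genes, for Foxp3+ cells (filled) and Foxp3- cells (open) on iNKT segments (circles) and other segments (squares), in BM only (left) and BM + Spl (right). Lines are 95% Clopper-Pearson intervals, and cells were not thinned. Filled circles and squares lie near each other and above the open symbols in every gene, and Foxp3- cells on other segments lie above Foxp3- iNKT V beta cells for Il1r2, at 12.1% against 1.53% in BM only.

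Foxp3+ cells with and without Klrg1 differed in some members. Klrg1+ cells were 191 of the Foxp3+ cells in BM only and 277 in BM + Spl. Of the 8 members other than Foxp3 and Klrg1, 3 (Areg, Il1rl1 and Il10) were at least 1.5-fold higher in them than in Klrg1- Foxp3+ cells, in both libraries, against 7.41% of genes tested in BM only and 11.6% in BM + Spl. Il1rl1 had 91.8 CPM (74.6 to 112) in Klrg1+ and 25.0 CPM (19.5 to 31.5) in Klrg1- Foxp3+ cells of BM only, and 67.0 and 13.99 CPM in BM + Spl. Areg had 93.7 and 34.7 CPM in BM only and 109 and 16.5 CPM in BM + Spl. Il10 had 22.5 and 5.90 CPM in BM only and 45.5 and 9.18 CPM in BM + Spl. Il1r2 was on the other side in BM only, with 335 and 434 CPM, and level in BM + Spl, with 293 CPM in both. Klrg1+ cells were the shallower ones, with medians of 4224 against 4830 UMIs in BM only and 5250 against 6818 in BM + Spl.

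Between the BMT libraries, the median ratio of the members lay below 0 in Foxp3+ cells and above 0 in Foxp3- cells. Klrg1 was higher in BM + Spl in both, and Il10 was higher there in Foxp3+ cells. Without a Foxp3 UMI, only 10 cells held Il10 in BM only, and 14 did in BM + Spl. No rise of Il10 is read in Foxp3- cells. In Foxp3+ cells of BM + Spl over BM only, 1 of 9 members (Il10) was at least 1.5-fold higher, against 6.13% of genes, and 1 (Tff1) was lower, against 9.01%, with a median of −0.38. Il10 stood at 20.8 CPM against 10.4 CPM, with an interval of 0.49 to 1.54 for the log2 ratio. Klrg1 differed by 0.40 (0.27 to 0.54) and Tff1 by −1.55 (−1.63 to −1.47). In Foxp3- cells 6 of 9 (Ikzf4, Klrg1, Areg, Il1r2, Il1rl1 and Ebi3) were at least 1.5-fold higher, against 9.21%, with a median of 0.78. Areg differed by 1.72 (1.38 to 2.08), Ebi3 by 1.22 (1.01 to 1.44) and Il1r2 by 0.78 (0.64 to 0.93). A single Foxp3- cell of BM + Spl held 69 Areg UMIs. As a result, the share of a gene's UMIs that lay in Foxp3+ cells was smaller in BM + Spl for Tff1 (67.2% against 86.1%), Ebi3 (45.4% against 67.0%) and Areg (46.0% against 69.4%). For Il10 it was 84.2% (77.5 to 89.5) in BM + Spl and 69.5% (56.1 to 80.8) in BM only, with intervals that overlapped.

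**Figure D4:**
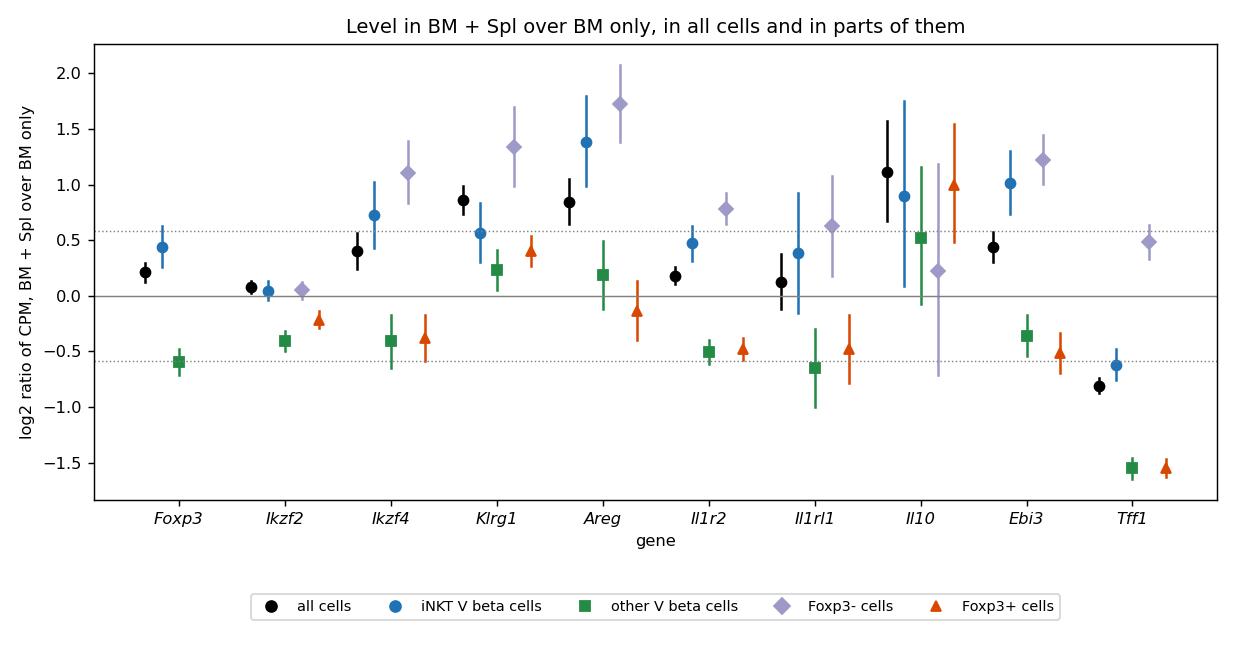
Log2 ratio of the level in BM + Spl over BM only, for all cells, for both V beta groups and for cells with and without a Foxp3 UMI. Lines are exact 95% intervals of the ratio and dotted lines mark 1.5-fold. Tff1 lies at −1.55 in Foxp3+ and other V beta cells, and for Ikzf4, Il1r2 and Ebi3 the purple and orange symbols (Foxp3- and Foxp3+ cells) lie on opposite sides of 0.

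Cells were then clustered without the 10 members and the receptor segments, which gave 17 clusters. Cluster 5, led by Tnfrsf4, Il2ra, Neb, Tnfrsf9, Tigit and Ctla4 and named regulatory T-like from its markers, held 103 C57BL/6 cells, 534 BM only cells and 536 BM + Spl cells. Il2ra, the high-affinity IL-2 receptor chain, and Ctla4, an inhibitory receptor, are textbook genes of regulatory T cells. Foxp3 was found in 0 of the 103 C57BL/6 cells in this cluster, in 459 of 534 (86.0%) of BM only and in 466 of 536 (86.9%) of BM + Spl, so in C57BL/6 the data go against the name. The Foxp3 level there was 532 CPM in BM only and 534 CPM in BM + Spl. Cluster 5 held 71.5% of the Foxp3 UMIs of BM only and 65.3% of those of BM + Spl, and 88.0% and 79.4% of the Klrg1 UMIs. Other V beta segments made up 69.9% and 75.7% of its called cells.

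In cluster 5 the members kept the pattern of the Foxp3+ cells, to which most of its BMT cells belong. Tff1 had 1209 CPM in BM only and 459 CPM in BM + Spl, a log2 ratio of −1.40 (−1.49 to −1.31). Klrg1 had 257 and 400 CPM, a ratio of 0.64 (0.50 to 0.78). Il10 had 17.5 and 39.6 CPM, a ratio of 1.18 (0.68 to 1.71). The Foxp3 ratio was 0.01 (−0.10 to 0.11).

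Cluster 4, which stayed unnamed and was led by Ccl1, Sostdc1, Nrn1, Penk and Il2, was 5.83% (5.25 to 6.45) of BM only and 16.9% (16.0 to 17.9) of BM + Spl. It carried some members and not others. Il1r2 stood at 386 CPM in BM only and 237 CPM in BM + Spl there, and Ebi3 at 113 and 94.6 CPM. Ikzf2 stood at 350 and 222 CPM and Tff1 at 236 and 136 CPM, all above Ebi3. Foxp3 was lower than in cluster 5, at 135 and 70.6 CPM, in 29.6% and 14.03% of the cells. Klrg1 was sparse, at 3.77 and 2.80 CPM. The cluster held 37.0% of Il1r2 UMIs in BM only and 49.02% in BM + Spl, and 33.4% and 50.6% of Ebi3 UMIs. Of the Tff1 UMIs it held 12.1% and 29.8%. Its called cells were 72.5% and 64.0% on other V beta segments. In its cells without a Foxp3 UMI, Il1r2 had 291 CPM (262 to 323) in BM only and 195 CPM (183 to 208) in BM + Spl, and Ebi3 had 88.7 and 101 CPM.

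Cluster 4 bore on the library comparison in Foxp3- cells. Without it, an alternative added after seeing the data, the ratio of BM + Spl over BM only in Foxp3- cells was 0.07 for Il1r2, 0.23 for Ebi3 and −0.43 for Tff1, while Klrg1 stood at 1.42 and Areg at 1.05. Then 4 of 9 members were at least 1.5-fold higher, but the share over all genes was not computed without cluster 4. In iNKT V beta cells without it, Il1r2 stood at −0.33, Ebi3 at 0.25 and Areg at 0.63. For Klrg1, cluster 5 bore on the Foxp3- cells. Of 735 Klrg1 UMIs in BM only, 645 lay in Foxp3+ cells and 67 in the 75 Foxp3- cells of cluster 5. In BM + Spl, 1383 of 1654 lay in Foxp3+ cells and 175 in the 70 Foxp3- cells of cluster 5. Most Klrg1 UMIs of Foxp3- cells were thus in the regulatory T-like cluster.

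Clusters other than 4 and 5 held fewer UMIs of each member than cluster 5 in the BMT libraries, but some levels were high. The small unnamed cluster 16, led by immunoglobulin genes, had Il1r2 at 356 CPM (253 to 487) in 23 of 50 BM only cells. Its median cell there held 891 UMIs, and its 16 BM + Spl cells held 0 Il1r2 UMIs. The NKT17-like cluster 6 had Il1r2 at 3.13 CPM in BM only and 53.6 CPM in BM + Spl. Tff1 stood at 5.48 and 53.0 CPM there, opposite to its fall over all cells. Few cells held them, with Tff1 in 5 of 514 and 16 of 353 cells and Il1r2 in 5 and 22. Foxp3, Klrg1 and Il1rl1 were higher in BM + Spl in this cluster too, with log2 ratios of 1.66, 2.85 and 1.83. Ikzf2 was lower, at −0.68. The cycling-like cluster 8 had Foxp3 in 35.3% of its 119 cells in BM only and 24.9% of its 201 cells in BM + Spl, where the median cell held 13523 and 13178 UMIs. The plasmacytoid dendritic-like cluster 10 held 154 and 402 cells, with Foxp3 at 22.3 and 46.1 CPM and Klrg1 at 6.07 and 46.1 CPM. Doublets were not removed, and their part in this was not tested. In the B cell-like cluster 15, Tff1 and Areg had 0 UMIs in both libraries, whereas Il1r2 was found in 6 of 79 and 6 of 60 cells and Ebi3 in 12 of 79 and 13 of 60.

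**Figure D5:**
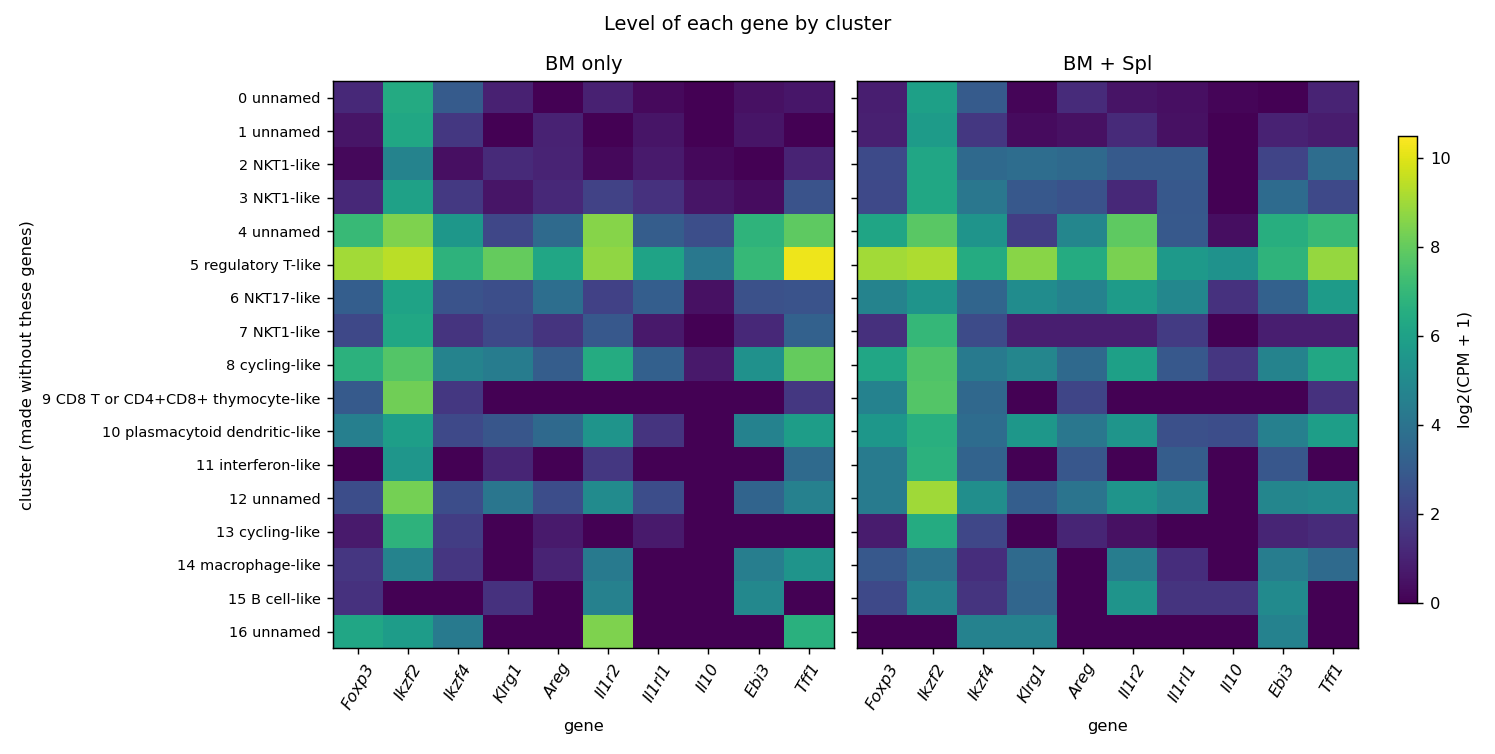
Level of the 10 genes in each of the 17 clusters, as log2(CPM + 1) on a color scale, for BM only (left) and BM + Spl (right). Cluster names follow marker genes, and the clusters were made without the genes shown. Cluster 5 is bright for most of the genes in both libraries, with Tff1 at 1209 and 459 CPM and Il10 the lowest at 17.5 and 39.6 CPM. Cluster 4 is bright for Il1r2, Ikzf2 and Tff1, less so for Foxp3 and Ebi3, and dark for Klrg1, Il1rl1 and Il10.

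The genes whose level followed Foxp3 most closely were sought over 33 groups of cluster and BMT library among 10612 genes. Outside the members these were Flicr, a noncoding RNA of the Foxp3 locus (Pearson r = 0.91), the costimulatory receptor Tnfrsf4 (0.90), Ctla4 (0.89), Lrrc32, which presents TGF-β on the surface of regulatory T cells (0.84), and Odc1, an enzyme of polyamine synthesis (0.84). Of the members, Ikzf4 ranked 4 (0.86), Tff1 ranked 7 (0.83), Il1r2 ranked 15 (0.79), Klrg1 ranked 74 (0.68) and Ikzf2 ranked 202 (0.56). These values describe groups that share libraries, clusters and depth.

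The wider regulatory T cell programme was read from lists written with earlier results known. Of 19 surface and signalling genes, 15 of 18 tested in BM only and 13 of 19 in BM + Spl were at least 1.5-fold higher in Foxp3+ than in Foxp3- cells and 0 were lower, with medians of 1.68 and 1.97. The shares over all genes for this comparison, 16.8% higher and 19.2% lower in BM only and 12.9% and 17.1% in BM + Spl, stand beside the counts of each list. Il2ra stood at 418 CPM in Foxp3+ and 26.0 CPM in Foxp3- cells of BM + Spl. Lrrc32 stood at 23.0 and 0.940 CPM in BM only and 44.3 and 2.18 CPM in BM + Spl. Tnfrsf4 stood at 1439 and 56.0 CPM in BM only and 1539 and 159 CPM in BM + Spl. Of 19 transcription factors, 8 were higher and 4 lower in BM only and 7 higher and 2 lower in BM + Spl, so the share of factors that were lower was near or under that of all genes. Prdm1 (Blimp-1), which marks effector regulatory T cells, stood at 64.6 and 4.80 CPM in BM only and 37.8 and 2.97 CPM in BM + Spl. Batf stood at 253 and 49.5 CPM, then at 210 and 68.5 CPM. Satb1, a chromatin organiser that Foxp3 is known to repress, stood at 102 and 299.5 CPM, then at 91.5 and 279 CPM.

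The same lists divided the V beta groups and the libraries. In other over iNKT V beta cells, 12 of 18 surface genes tested in BM only and 15 of 19 in BM + Spl were higher, and 8 and 10 of the 19 factors, against 15.4% and 19.2% of all genes. Among the surface genes 0 were lower in BM only and 1 (Izumo1r) in BM + Spl, and among the factors 2 and 1, against 9.69% and 9.45% of all genes. In BM + Spl over BM only, over all cells, 7 surface genes were higher and 3 lower of 19 tested, against 8.17% and 10.8% of all genes. Tigit stood at 111 CPM in BM + Spl and 56.4 CPM in BM only, Lrrc32 at 8.44 and 3.45 CPM, and Itgae, the chain of the receptor for E-cadherin, at 86.0 and 195 CPM. Of the factors 0 were higher and 3 lower, among them Ikzf3 and Tbx21, with Tbx21, the factor of NKT1 cells, at 21.0 and 56.8 CPM. Within Foxp3+ cells 2 surface genes were higher and 0 lower, and 1 factor was higher and 5 lower, of 19 tested in each list, against 6.13% and 9.01% of all genes.

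Receptors and ligands that work with the members were read last. Il1r2 and Il1rl1 lie in a row of related receptor genes on chromosome 1, which runs from Il1r2 (chr1:40074079-40125231) over Il1r1 (chr1:40225080-40317257), Il1rl2 (chr1:40324610-40367562), Il1rl1 (chr1:40429570-40465415) and Il18r1 (chr1:40465552-40500854) to Il18rap (chr1:40515362-40551705) in mm10. Over all cells of BM + Spl over BM only, Il1r1, the signalling IL-1 receptor, stood at 3.22 and 14.8 CPM, a ratio of −2.20 (−2.48 to −1.93), and Il18rap at 17.4 and 45.3 CPM, a ratio of −1.38. Il1r2 and Il1rl1 stood at 0.18 and 0.13, so Il1r2 differed in sign from Il1r1 and Il18rap. The interval of Il1rl1 given above left its sign open. Il1rn, the secreted antagonist of the IL-1 receptor, stood at 9.37 CPM in Foxp3+ and 0.583 CPM in Foxp3- cells of BM only and at 12.5 and 0.191 CPM in BM + Spl. Il2, which regulatory T cells consume and do not make, stood at 1.01 and 5.22 CPM in BM only and 0.625 and 29.99 CPM in BM + Spl. Il10ra, the receptor for IL-10, stood at 54.7 and 26.9 CPM, then at 57.5 and 18.1 CPM. Of the 22 partner genes, 3 were higher and 8 lower in Foxp3+ cells among 15 tested in BM only, and 4 higher and 8 lower among 16 in BM + Spl. Against 16.8% of all genes higher and 19.2% lower in BM only, and 12.9% and 17.1% in BM + Spl, the share higher in BM only was near that of all genes.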

How the data were processed

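Sorted thymic cells of the iNKT phenotype were captured as 3 droplet libraries, 1 per group. The authors aligned reads to mm10 with Cell Ranger and deposited UMI counts per gene and cell, without normalization. Seurat 4.0.2 is named in the submitters' processing notes. Depth per library is given with the data, and it limits how rare a transcript could be seen.

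Cells were filtered as stated there, and doublets were kept. UMIs were summed over sets of cells and scaled to CPM over 30406 shared gene identifiers. Genes with at least 20 UMIs in the 2 groups of a comparison were counted as past 1.5-fold. With 1 library per group no test was run. V beta segments were called at 80%. Cells were clustered in Python 3.11.15 (numpy 2.4.6, scipy 1.17.1, pandas 2.3.3, leidenalg 0.10.2) on 2000 variable genes without members and receptor segments, with 20 principal components, a Harmony correction written anew and resolution 0.6. Names came from marker lists by a scoring rule set after leading genes were seen.

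The members and lists were chosen with earlier results of these data known. Named were all members, and of each list up to 4 genes with the largest difference in each direction past 1.5-fold with at least 50 UMIs, the receptor genes of the Il1r2 to Il18rap row, and 5 genes most like Foxp3. Not every named gene is given at each comparison, and 1 gene of the factor list is not reported here by name. Alternatives changed the filter, depth per cell, V beta call, fold, total, clustering and cells used, and leaving out clusters was added after seeing the data. The calculations were tested on simulated counts.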

Additional observations from a re-analysis of the deposited data

Results flagged for a closer look

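The log2 ratio of BM + Spl over BM only had opposite signs in iNKT V beta and other V beta cells for 4 genes, with intervals that left out 0 on both sides. The gap, iNKT minus other V beta cells, was 1.03 for Foxp3, 1.14 for Ikzf4, 0.98 for Il1r2 and 1.38 for Ebi3. The levels of Il1r2 and Ebi3 in iNKT V beta cells were above those of the NKT1-like cluster 2 but not above those of the B cell-like cluster. The Il1r2 ratio in iNKT V beta cells turned to −0.33 without cluster 4. Signs were also opposite in Foxp3- and Foxp3+ cells for 5 genes. The gap, Foxp3- minus Foxp3+ cells, was 1.49 for Ikzf4, 1.26 for Il1r2, 1.10 for Il1rl1, 1.74 for Ebi3 and 2.04 for Tff1. In Foxp3- cells without cluster 4 the ratio of Tff1 turned to −0.43, and that of Il1r2 was 0.07. With 1 library per group the difference was not tested in any of these genes.

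Cells left out by the filter held members too. The 16 such cells of BM only had Foxp3 at 112.2 CPM (53.8 to 206.4) from 10 UMIs in 2 cells, Ikzf2 at 359.2 CPM, Il1r2 at 78.6 CPM and Ebi3 at 44.9 CPM. The 16 of BM + Spl had Il1r2 at 134.8 CPM and Tff1 at 89.8 CPM, each from 1 cell. In the 179 of C57BL/6 these genes had 0 UMIs, except Ikzf2 at 180.3 CPM.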

How the results depend on the processing

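Of 165 counts and shares recomputed under alternatives, 129 kept within their limits and 36 moved. Of 600 single gene ratios, 405 stayed within their intervals, 194 moved outside them and 1 that was past 1.5-fold changed sign. In BM + Spl over BM only, members at least 1.5-fold higher were 3, and 5 after thinning to 2000 UMIs or without cells holding 2 markers of another cell type. Leaving out such cells kept 4930 BM only and 3653 BM + Spl cells, and took out many cells outside the clusters named for other cell types. At 2-fold 1 was higher and 0 were lower. In iNKT V beta cells, 4 members were higher, and 7 when all V beta UMIs had to lie on 1 segment or without cells with markers of another type, and 2 with only Trbv29 and the pair Trbv12-2 and Trbv13-2, where 2 were lower and Areg turned to −0.67. There 0 were lower after thinning, without cells with markers of another type or without clusters 10, 14 and 15. In other V beta cells 1 was lower after thinning, and without cluster 4 1 was lower and 1 higher. Foxp3+ cells were 7.57% and 10.3% of BM only and BM + Spl at 2 Foxp3 UMIs or more, 7.31% and 8.60% after thinning, and 9.69% of BM only without cluster 4. In Foxp3+ cells 2 members were lower at 2 Foxp3 UMIs or more, and 2 were higher after thinning. At resolution 0.3 the cluster highest in regulatory T markers held 87.1% and 82.4% of Foxp3 UMIs and 14.8% and 26.5% of cells, and without Harmony 90.1% and 83.5% of UMIs and 12.4% and 14.3% of cells. At 2-fold, 2 surface genes were higher and 1 lower between the BMT libraries, and in other over iNKT V beta cells 5 factors were higher and 1 lower in BM only and 6 and 0 in BM + Spl. With at least 100 UMIs, 1 partner gene was higher between the libraries. The share of all genes past the fold was not computed under any alternative, so these counts have no background beside them. The cause was not tested. No paired analysis was possible because each group is 1 library, and no replicate could be left out.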
